A study of Mus musculus with 3 samples.

Results

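Promoter regions that were open in both Msx2-knockout libraries and not listed in the wild type were examined here. A region was taken where peak intervals of the 3 libraries that shared at least 1 base were merged, where both Msx2-KO lists and not the Msx2-WT list held a peak, and where the centre lay within 1500 bases of the start of a protein-coding transcript in GRCm38. Of 149028 merged regions on the 19 autosomes, 15246 lay at promoters, and 419 of these were of this kind (2.75% of promoter regions, 95% Wilson interval 2.50 to 3.02). They belonged to 428 of 20807 autosomal protein-coding genes (2.06%). The presence of a peak in the Msx2-KO lists and its absence from the Msx2-WT list chose these regions, so the values given for them are a description and no test of genotype was made on them.

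Open chromatin was mapped by Omni-ATAC-seq, which uses the Tn5 transposase to cut accessible DNA and tag it for sequencing, in hair follicle stem cells (HFSCs) sorted as CD34+CD49f+Sca-1- cells from dorsal skin of mice in telogen at 6 months of age. One group was Msx2-WT (1 library, wild-type genotype), for which the methods of the study name C57BL/6J animals matched for the hair cycle stage. The other group was Msx2-KO (2 libraries, Msx2 knockout), a line made by gene targeting in embryonic stem cells and bred from heterozygous parents, so that Msx2 is missing from every tissue and not from HFSCs alone. Whether the 2 Msx2-KO libraries came from separate animals is not stated, and their spread may be technical. By the labels, the wild type was one batch and the knockouts were another, and effects of genotype and of batch cannot be told apart. The peaks in both knockout lists are named with cKO, and in the list of Msx2-KO replicate 1 with a library number that its label does not have. Groups were taken from the labels.

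A promoter is the stretch of DNA around a transcription start where general factors and RNA polymerase assemble, and in an active or poised gene it is usually free of nucleosomes. Most widely used mammalian promoters lie in CpG islands, stretches rich in G+C that keep their CpG dinucleotides because they escape DNA methylation, whereas promoters of tissue-restricted genes more often lack them. HFSCs rest in the bulge of the follicle during telogen, and MSX2 is a homeodomain factor of skin and hair that recognises the core TAATTG and mostly acts as a repressor.

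The base composition of these regions ran from CpG islands to DNA nearly free of CpG, and 5 windows of 120 bases show that range, with each CpG in capitals. The windows were the 120 bases nearest the middle of the stretch shared by both Msx2-KO peaks that held no annotated untranslated region, read 5′ to 3′ on the strand of the gene from the RefSeq sequence of GRCm38. Cdkn2a encodes the cell cycle inhibitors p16 and p19, Dnajc19 a part of the protein import motor of mitochondria, Kcnv1 a modifying subunit of potassium channels, Il31ra a receptor of the itch cytokine interleukin 31, and Mup6 a urinary pheromone carrier. Mup6 was picked for its lack of CpG after its values were seen.
Cdkn2a (chr4:89294702-89294821, minus strand): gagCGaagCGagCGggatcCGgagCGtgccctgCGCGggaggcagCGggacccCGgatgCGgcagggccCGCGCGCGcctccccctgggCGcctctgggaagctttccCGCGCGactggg
Kcnv1 (chr15:45114308-45114427, minus strand): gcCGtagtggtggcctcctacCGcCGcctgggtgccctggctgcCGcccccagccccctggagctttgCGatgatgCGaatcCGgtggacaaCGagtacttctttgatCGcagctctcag
Dnajc19 (chr3:34081514-34081633, minus strand): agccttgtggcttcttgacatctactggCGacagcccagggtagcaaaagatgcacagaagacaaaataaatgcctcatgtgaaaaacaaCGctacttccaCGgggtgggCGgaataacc
Il31ra (chr13:112580903-112581022, minus strand): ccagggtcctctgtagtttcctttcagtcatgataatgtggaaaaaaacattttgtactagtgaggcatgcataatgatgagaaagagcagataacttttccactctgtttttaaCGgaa
Mup6 (chr4:59963744-59963863, plus strand): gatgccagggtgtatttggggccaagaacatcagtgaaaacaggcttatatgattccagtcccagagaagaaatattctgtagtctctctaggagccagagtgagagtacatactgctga
The Cdkn2a window held 18 CpG and the Kcnv1 window 9. The Dnajc19 window held 4, the Il31ra window 1 and the Mup6 window 0.

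Some of the strongest peaks among these regions lay at near-identical promoters of zinc finger genes on distal chromosome 2, and the 100 bases before their start sites are shown with the CCAAT pentamer in capitals. Gm14308, Gm14434, Gm2026 and Gm14418 are predicted genes of a tandem array of C2H2 zinc finger genes, a class that encodes DNA-binding proteins, and RefSeq lists Gm14418 as a pseudogene.
Gm14308 (chr2:176636345-176636444, minus strand): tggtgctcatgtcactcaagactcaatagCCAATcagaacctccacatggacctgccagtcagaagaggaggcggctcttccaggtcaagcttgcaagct
Gm14434 (chr2:176486784-176486883, minus strand): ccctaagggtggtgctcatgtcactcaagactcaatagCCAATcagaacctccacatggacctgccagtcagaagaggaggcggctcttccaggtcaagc
Gm2026 (chr2:175965231-175965330, plus strand): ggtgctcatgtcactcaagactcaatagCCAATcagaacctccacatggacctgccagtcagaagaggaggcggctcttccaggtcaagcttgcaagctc
Gm14418 (chr2:177398320-177398419, minus strand): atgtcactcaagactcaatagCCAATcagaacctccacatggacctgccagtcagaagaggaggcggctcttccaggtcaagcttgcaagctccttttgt
Over 300 bases around the start, Gm14308 matched Gm2026 at 99.3% of aligned columns, Gm14434 at 94.2% and Gm14418 at 90.3%. Reads from such copies cannot be told apart with certainty, and how the authors treated reads that match several places is not given in the sources used here, so the values of these 4 genes are uncertain as to the copy.

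Read totals are not part of the lists. The commonest local background at the summits, a measure of depth, was 1.74 tags in Msx2-WT, 0.476 in knockout replicate 1 and 0.790 in knockout replicate 2. The tag number at each summit was recovered from its deposited fold and p-value. At the background level the lists began at 5 tags in Msx2-WT, which was 2.88 times its background, and at 3 tags in both Msx2-KO libraries, which was 6.3 and 3.8 times the background of replicates 1 and 2. Promoter peaks were listed for 10 of 10 HFSC marker genes in the wild type and in knockout replicate 2, and for 8 in knockout replicate 1 (not Cd34 and Nfatc1). They were listed for 1 of 11 leukocyte genes in the wild type, for 0 in knockout replicate 1 and for 1 in knockout replicate 2. In the wild type and in knockout replicates 1 and 2 they were listed for 4, 2 and 4 of 7 melanocyte genes, 3, 2 and 4 of 7 fibroblast genes, 2, 1 and 2 of 5 endothelial genes and 4, 0 and 2 of 5 interfollicular genes. Of the HFSC marker genes 2 of 10, Lhx2 and Tcf7l1, were among the 428 genes. None of the 11 leukocyte, 7 melanocyte, 7 fibroblast, 5 endothelial and 5 interfollicular genes was, and at a share of 2.06% of all genes lists of that length say little about these markers. The intervals printed here cover counting error only, and duplicate reads were kept in the tags.

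**Figure D1:**
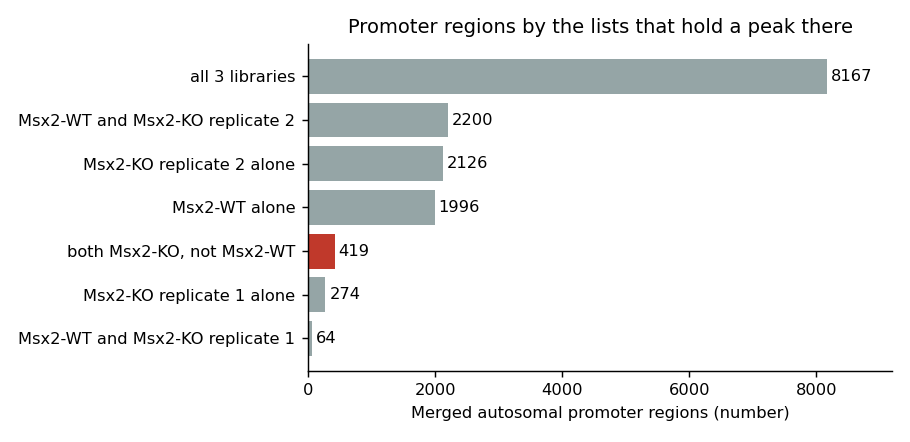
Number of merged autosomal promoter regions by the libraries whose lists hold a peak there, with 1 bar per combination and the number beside it. The 419 regions missing from Msx2-WT alone (red) are fewer than the 2200 missing from Msx2-KO replicate 1 alone and more than the 64 missing from Msx2-KO replicate 2 alone.

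The number of these regions has to be read beside the other ways in which 1 library can be the odd one out. Regions missing from knockout replicate 1 alone made up 14.4% of promoter regions (2200), and regions missing from knockout replicate 2 alone 0.42% (64). The share of the regions missing from Msx2-WT, 2.75%, lay between them. Most promoter regions, 8167, had a peak in all 3 libraries. Peaks of a single library accounted for 1996 regions (Msx2-WT), 274 (knockout replicate 1) and 2126 (knockout replicate 2). Over the whole genome 4390 regions were in both Msx2-KO lists and not in Msx2-WT, and 9.54% of those lay at promoters.

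The peaks at these 419 promoters were small. Where a pair of tag numbers is given for a gene, it is that of knockout replicate 1 and then of replicate 2. In knockout replicate 1 they held 3 to 16 tags with a median of 5, which was 45.5% of the median of 11 tags at promoter regions with a peak in all 3 libraries. In knockout replicate 2 they held 3 to 32 tags with a median of 9, which was 36.0% of the median of 25 at the shared promoter regions. Over the background of the library the medians were 10.5 in replicate 1 and 11.4 in replicate 2. At the shared promoter regions they were 23.1 and 31.6, and Msx2-WT had a median of 25 tags there, 14.4 times its background. In replicate 1, 89 of the 419 regions were at the lowest tag number of the list, and in replicate 2 this was so for 9. The q-value is the p-value of a summit against the background of its own library, adjusted over that library. A −log10 q above 2.0 was reached in both libraries by 154 regions (36.8%), and in neither by 77.

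A peak missing from a list does not show that the promoter was closed, and no tag number of Msx2-WT below its limit can be read from the lists.

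The nearest Msx2-WT peak lay a median of 5539 bases away. For 56 of the 419 regions it lay within 1000 bases and for 24 within 500. Slc25a24, a carrier of the inner mitochondrial membrane, had the closest, at 41 bases. The summits of both Msx2-KO libraries lay within 100 bases of each other in 43.4% of these regions, with a median distance of 132 bases, whereas in shared promoter regions 69.1% did, with a median of 55 bases.

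Of the 428 genes, 327 had no Msx2-WT peak at any of their promoters. The other 101 had one in another region within 1500 bases of the same or another start of the gene. Tbc1d1, which encodes a GTPase-activating protein of glucose uptake, was one of the 101. Its region in both Msx2-KO lists (chr5:64229716-64230734) held 16 tags in replicate 1 and 25 in replicate 2, whereas an upstream start carried 9 tags in Msx2-WT, 4 in knockout replicate 1 and 8 in knockout replicate 2. Lhx2, a LIM homeobox factor that maintains HFSC quiescence, had 6 and 7 tags at a start with no Msx2-WT peak (chr2:38339090-38339829, in an untranslated exon). Another start of Lhx2 carried 33 tags in Msx2-WT, 28 in knockout replicate 1 and 59 in knockout replicate 2. Tcf7l1, a Wnt-repressing factor of the bulge, had 11 and 19 tags in an intron 1239 bases from its start, beside a region around the start with 21 tags in Msx2-WT, 16 in knockout replicate 1 and 28 in knockout replicate 2. Lhx2 and Tcf7l1 were thus listed in Msx2-WT in other promoter regions, for Tcf7l1 at the same start.

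The regions were ordered by the −log10 q of the weaker of both Msx2-KO peaks. Gm14308 came first, with 16 tags in knockout replicate 1 (95% Poisson interval 9.15 to 26.0) and 23 in replicate 2 (14.6 to 34.5), its centre 26 bases before the start and the nearest Msx2-WT peak 33362 bases away. Dnajc19 had 13 tags in replicate 1 and 20 in replicate 2, with 11685 bases to the nearest Msx2-WT peak. Det1, a component of a ubiquitin ligase that works with COP1, had 14 and 17. These 3 regions were 27.3 to 33.6 times the background in replicate 1 and 21.5 to 29.1 times in replicate 2.

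After Tbc1d1 came Elac1, an enzyme that processes tRNA ends, with 10 tags in replicate 1 and 22 in replicate 2. Kcnv1 had 11 and 14, over a coding exon 409 bases past the start. Zbtb46, a zinc finger factor known from dendritic cells, had 9 and 12, and Fdx1l, a mitochondrial ferredoxin of iron-sulfur cluster assembly, 10 and 18. The zinc finger genes Gm14434 and Gm2026 had 12 and 19 tags and 12 and 29 tags. The known roles of these genes thus ran from tRNA processing to potassium channels.

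Of the other regions among the leading 20, Pygo1, a nuclear cofactor of Wnt signalling, had 9 and 11 tags, and Lzts2, which moves beta-catenin out of the nucleus, 11 and 15. Cacnb2, a calcium channel subunit, had 12 and 24, and Unc13a, which primes synaptic vesicles for release, 12 and 21. Slc25a16, a mitochondrial carrier, had 8 and 12. Bcas1 (10 and 12), a gene of myelinating cells, Lrguk (9 and 10), a gene of sperm formation, Flywch2 (8 and 10), Tmem211 (9 and 16) and 0610030E20Rik (9 and 12) completed the list. Tbc1d1, Cacnb2 and Lzts2 were the ones among the 20 with an Msx2-WT peak in another promoter region.

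**Figure D2:**
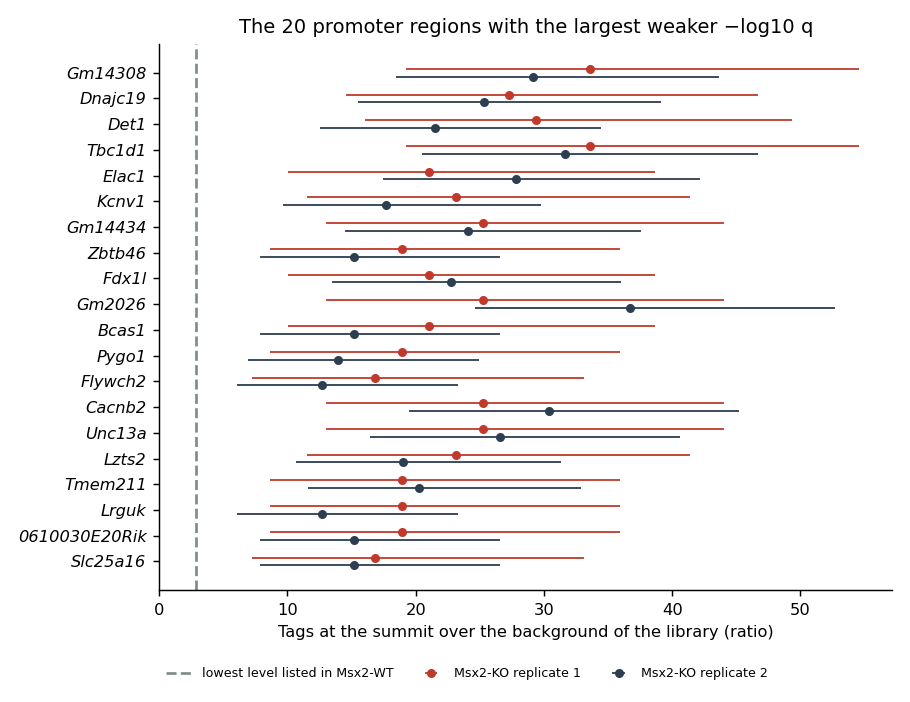
Tags at the summit divided by the background of the library (ratio, linear axis) for the 20 regions ranked highest by their weaker Msx2-KO peak, with 1 row per region named by its gene. Points are knockout replicate 1 (red) and replicate 2 (dark), bars are 95% Poisson intervals, and the dashed line is the lowest level at background in the Msx2-WT list (2.88). All of the points lie above it, as do the lowest levels in both Msx2-KO lists (6.3 and 3.8).

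At the other end of the order, Vsig8 (7 and 26 tags), Prnd (3 and 9) and Nfic (4 and 15) had the smallest weaker −log10 q, of 0.0543, 0.0027 and 0.0026. Just inside the limit of 1500 bases lay Pin1rt1 (−1497 bases from its start, 7 and 3 tags), Il31ra (1489 bases, 8 and 11) and Cd109 (1477 bases, 6 and 8). Just outside lay Tppp3 (1507 bases, 3 and 6 tags), Pla2r1 (−1515 bases, 3 and 5) and Tbx15 (1516 bases, 4 and 6). Cmah, Il31ra and Nlgn1 each had more than 1 region of this kind. The stronger Il31ra region held 12 and 22 tags. The regions of Cmah, which makes a form of sialic acid, held 7 and 6 tags and 3 and 6 tags. Those of the synaptic adhesion gene Nlgn1 held 4 and 10 tags and 4 and 8 tags.

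These promoter regions stood between shared and single-library promoters in their base composition. Over 500 bases around the centre the median G+C content was 61.6%, compared with 64.0% in shared promoter regions, 61.0% in regions of Msx2-WT and knockout replicate 2, 56.4% in those of knockout replicate 2 alone and 48.8% in those of Msx2-WT alone. The observed CpG number over that expected from the base content had medians of 0.668, 0.807, 0.708, 0.523 and 0.226 in the same order. A G+C content above 55% with a CpG ratio above 0.65 was found in 200 of the 419 regions (47.7%, 95% Wilson interval 43.0 to 52.5). It was found in 71.0% of the shared promoter regions and 9.67% of those in Msx2-WT alone. The regions of Cdkn2a (70.8% G+C, CpG ratio 1.09), Elac1 (62.6%, 1.06) and Dnajc19 (57.6%, 0.903) were of the CpG-rich kind, and those of Gm14308 (52.2%, 0.301), Bcas1 (46.2%, 0.188) and Il31ra (43.8%, 0.261) were not.

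**Figure D3:**
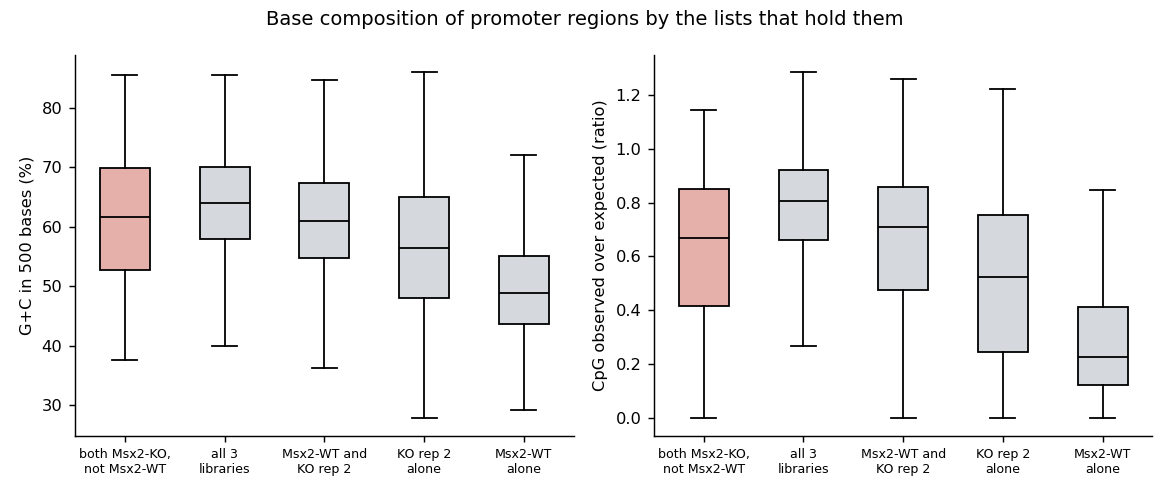
G+C content (left, percent) and the ratio of observed to expected CpG (right) in the 500 bases around the centre of promoter regions, by the libraries that hold a peak. Boxes span the quartiles with the median as a line, whiskers reach the last value within 1.5 times the box length, and values beyond are not drawn; the regions in both Msx2-KO lists (red) have medians of 61.6% and 0.668, above the 48.8% and 0.226 of Msx2-WT alone.

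They also lay less tightly around the start site than shared promoters. The centre lay a median of 215 bases from the nearest start, compared with 129 in shared regions and 640.5 in regions of Msx2-WT alone. Within 500 bases of a start lay 322 of the 419 (76.9%), compared with 91.6% and 42.5%. In regions of Msx2-WT and knockout replicate 2 the median was 153 bases, and 85.1% lay within 500. In those of Msx2-WT and knockout replicate 1 it was 268.5 bases, and 56.25% did. The centre was upstream of the start in 168 regions and downstream in 251 (59.9%, compared with 57.5% of shared regions). It fell outside the gene in 125, in an intron in 140, in an untranslated exon in 101 and in a coding exon in 53. Over 50% of the bases were soft-masked repeats in 3 of the regions. The regions were 371 to 2318 bases wide, with a median of 992.

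**Figure D4:**
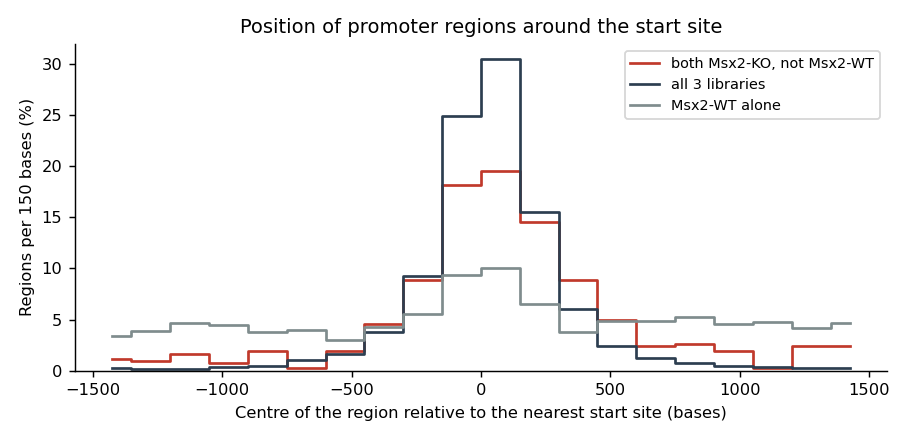
Share of promoter regions (percent per 150 bases) by the distance of the centre from the nearest protein-coding start site, negative upstream. The regions in both Msx2-KO lists (red) peak at the start as shared regions do (dark) but with a lower peak, and 76.9% of them lie within 500 bases compared with 91.6% of shared regions and 42.5% of those in Msx2-WT alone (grey).

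Msx2 encodes a homeodomain protein, so its core was counted in the 300 bases around each centre, on both strands. TAATTG was found in 13 of the 419 regions (3.10%), in 3.44% of shared promoter regions, in 8.02% of regions in Msx2-WT alone, in 7.48% of those in knockout replicate 2 alone and in 6.74% of 19073 RefSeq promoters of the same length. Of these 13 regions, 5 are shown with 50 bases around the core, in capitals as TAATTG or its complement CAATTA. Nkx2-2 and Sall1 are developmental transcription factors, Nr4a1 is an immediate early nuclear receptor, Emc4 is part of a membrane protein insertion complex and Ssc5d is a scavenger receptor, picked from the 13 after their values were seen.
Nkx2-2 (chr2:147186676-147186725, minus strand): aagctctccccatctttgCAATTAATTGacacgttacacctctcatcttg
Sall1 (chr8:89043471-89043520, minus strand): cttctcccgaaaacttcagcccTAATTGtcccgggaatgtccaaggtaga
Nr4a1 (chr15:101253791-101253840, plus strand): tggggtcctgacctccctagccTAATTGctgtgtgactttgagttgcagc
Emc4 (chr2:112368005-112368054, minus strand): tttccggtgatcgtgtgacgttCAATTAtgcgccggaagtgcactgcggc
Ssc5d (chr7:4925073-4925122, plus strand): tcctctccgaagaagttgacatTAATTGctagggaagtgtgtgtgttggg
These regions held 3 and 4 tags for Nkx2-2, 3 and 7 for Sall1, 5 and 13 for Nr4a1, 5 and 7 for Emc4 and 9 and 22 for Ssc5d in knockout replicates 1 and 2. A match of these letters is not a site of binding.

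Other short motifs were counted in the same 300 bases, on both strands. GGGCGG, the box of SP and KLF factors, was present in 51.3% of the regions, compared with 64.4% of shared promoter regions and 15.1% of those in Msx2-WT alone. CCGGAAG, the core of ETS factors, was present in 7.88%, compared with 15.0% and 2.61%. CCAAT, of NF-Y, was present in 24.3%, compared with 31.4% and 33.4%. TGANTCA, the AP-1 motif, was present in 6.21%, compared with 3.64% and 11.7%, and the TATA box letters TATAAA likewise in 6.21%, compared with 3.36% and 13.4%. The homeodomain letters TAATTA, which do not overlap TAATTG by definition at the same position, were present in 2.63%, compared with 1.75% and 4.91%. GTCTAGA, the SMAD palindrome, was present in 1.43%, compared with 1.56% and 2.00%, and CTTTGAT, of TCF and LEF factors, in 2.86%, compared with 1.57% and 4.01%. In 19073 RefSeq promoters the shares were 48.4% for GGGCGG, 12.1% for CCGGAAG, 37.4% for CCAAT, 7.01% for TGANTCA, 12.1% for TATAAA, 4.40% for TAATTA, 2.06% for GTCTAGA and 3.17% for CTTTGAT.

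The lists for the pathways the study was designed around are short, and the 95% Wilson interval of each list given here includes the 2.06% of all genes. Of 36 TGF-beta and BMP genes 0 were among the 428 (95% Wilson upper bound 9.64%), and of 34 Wnt genes 1 was, Tcf7l1 (2.94%, 0.521 to 14.9). Smad9 (4 and 12 tags), Ldlrad4 (5 and 16) and Wnt2b (3 and 7) were picked after their values were seen. Ldlrad4 had an Msx2-WT peak in another promoter region. All of these genes lay outside these lists but were among the 428. Of 34 adhesion and matrix genes 2 were (5.88%, 1.63 to 19.1). Col6a2, a chain of collagen VI, had 7 tags in knockout replicate 1 and 8 in replicate 2 (chr10:76622840-76624008). The study reports lower Col6a2 RNA in knockout HFSCs and weaker collagen VI staining, and a listed promoter peak measures neither. Tnc, the matrix glycoprotein tenascin C, had 5 and 25 tags. Of 27 cell cycle genes 2 were (7.41%, 2.06 to 23.4): Ccnd2, a D-type cyclin, with 9 and 18 tags and an Msx2-WT peak 593 bases away, and Cdkn2a with 5 and 7. This Cdkn2a region lay 165 bases before its start, and a region near another Cdkn2a start was in knockout replicate 2 alone, with 3 tags. No gene of 19 in epidermal differentiation (upper bound 16.8%), 30 in DNA repair (11.4%) or 10 of the circadian clock (27.8%) was among the 428, and these bounds include the share of all genes. Of the 36 TGF-beta and BMP genes, 33 were listed with a promoter peak in the wild type, 31 in knockout replicate 1 and 35 in knockout replicate 2. Tgfbr1, at whose locus the study reports more accessible chromatin in the knockout, had a promoter peak in every list. A rule of presence and absence cannot show a difference of that kind.

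Leaving aside the families that were counted after the members were known, collagens and potassium channels had the largest shares among families defined by gene symbol. Of 42 collagen genes, 6 had such a region (14.3%, 95% Wilson interval 6.72 to 27.8) against 2.06% of all genes. Besides Col6a2 these were Col18a1 of basement membranes (7 and 9 tags), Col14a1 (4 and 9), Col20a1 (3 and 3) and the head-to-head basement membrane pair Col4a3 and Col4a4, which share a single region with 3 and 8 tags. Of 92 genes named Kcn, 9 had such a region (9.78%, 5.23 to 17.6). Kcnv1 led them, followed by Kcns2 (6 and 7 tags), another silent subunit, Kcnq5 (4 and 7), Kcnn1 (3 and 10), Kcna7 (3 and 7) and Kcnh2 (3 and 4), the hERG channel. The share of Kcn genes with a region in knockout replicate 2 alone was 29.3%, against 9.82% of all genes, and that of collagens was 28.6%. In Msx2-WT alone the shares were 13.0% of Kcn genes and 16.7% of collagens, against 9.16% of all genes. Of these collagens only Col6a2, and of these Kcn genes only Kcnv1 and Kcns2, had a −log10 q above 2.0 in both knockouts. A value of 3 tags is the lowest of the list of knockout replicate 1. Col18a1, Col14a1 and Kcnh2 had an Msx2-WT peak in another promoter region. The shares of these families were not recounted under other processing.

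Of the other such families, the intervals of olfactory receptors, vomeronasal receptors (1 of 329, 0.304%, 0.0537 to 1.7) and genes named Gm lay below 2.06%, and the rest included it. Of 330 solute carriers taken by the symbol pattern 11 had such a region (3.33%). Slc25a16, Slc7a8 (6 and 7 tags), an amino acid transporter, and Slc25a13 (6 and 14), a mitochondrial aspartate carrier, led these 11. Next came Slc25a21 (5 and 11), Slc23a2 (5 and 7), a vitamin C transporter, and Slc2a9 (5 and 9), a urate transporter. The pattern did not take in Slc35d1 (7 and 15), which had such a region too, so the count leaves it out. Of 459 genes named Zfp, Zbtb, Zkscan or Zscan 10 had one (2.18%), led by Zbtb46, Zfp455 (7 and 11), Zfp458 (5 and 15), Zfp423 (5 and 9), Zfp648 (5 and 8) and Zfp109 (5 and 4). Of 1226 genes named Gm 13 had one (1.06%, 0.621 to 1.81), and of 539 Rik genes 11. The interleukin group gave 3 of 77: Il31ra, the inflammatory cytokine Il6 (4 and 12) and Il34 (3 and 5), a ligand of the CSF1 receptor. None of 1128 olfactory receptors (upper bound 0.339%), 49 keratins, 39 Hox genes, 77 cytosolic ribosomal protein genes or 74 histone genes was among the 428, although 74 of the 77 ribosomal protein genes were listed with a promoter peak in the wild type.

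**Figure D5:**
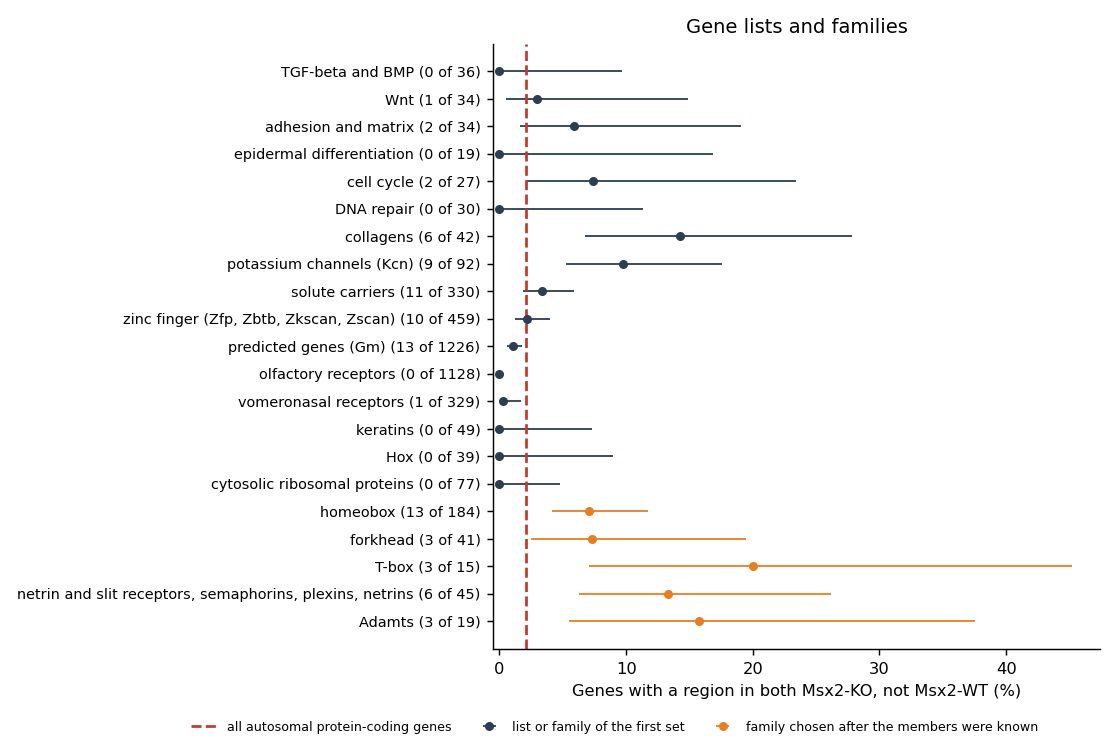
Share of the genes of a list or family that have a promoter region in both Msx2-KO lists and not in Msx2-WT (percent), with 95% Wilson intervals as bars and the counts beside each name. The dashed line is the share among all autosomal protein-coding genes (2.06%); collagens (14.3%) and Kcn genes (9.78%) lie above it, olfactory receptors at 0, and the orange families were chosen after the members were known.

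Some families stood out on reading the genes and were counted after the members were known, so that their shares are a description beside the 2.06% of all genes. Of 184 homeobox genes 13 had such a region (7.07%, 95% Wilson interval 4.18 to 11.7), and 4.89% had one in Msx2-WT alone and 23.9% in knockout replicate 2 alone, compared with 9.16% and 9.82% of all genes. Tshz3 (7 and 13 tags), Irx1 (10 and 27), Lhx2, Pou4f1 (6 and 7) of sensory neurons, Lhx8 (5 and 6) and Gsx1 (4 and 4) led them. T-box genes gave 3 of 15 (95% Wilson interval 7.05 to 45.2%): Tbx1 (8 and 15), Tbx6 (4 and 8) and Eomes (3 and 8). Forkhead genes gave 3 of 41 (7.32%, 2.52 to 19.4): Foxp1 (6 and 8), which keeps HFSCs quiescent, Foxi3 (5 and 9), a factor of hair placodes, and Foxl2 (3 and 9). Genes of axon guidance gave 6 of 45 (13.3%, 6.26 to 26.2), among them Plxnb2 (6 and 14), a semaphorin receptor, and Unc5d (7 and 16), a netrin receptor. Like Lhx2, the genes Tbx1, Foxp1, Plxnb2 and Unc5d had an Msx2-WT peak in another promoter region. Metalloproteases of the Adamts group gave 3 of 19 (15.8%, 5.52 to 37.6): Adamts19 (7 and 11), Adamts3 (5 and 16) and Adamts9 (4 and 5). Regions in Msx2-WT alone were found for 22.2% of guidance, 15.8% of Adamts, 12.2% of forkhead and 6.67% of T-box genes (9.16% of all genes). In knockout replicate 2 alone the numbers were 9 of 45, 5 of 19, 9 of 41 and 5 of 15 in that order. Each of these shares lay above the 9.82% of all genes. For guidance, Adamts and forkhead genes a larger share was thus not particular to regions missing from Msx2-WT.

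By function, 250 of the 428 genes were sorted by hand into 16 classes after the members were known, and 178 were not sorted. Only members were sorted, so no share of all genes can be set beside the class sizes, which are a description. The largest class, 50 genes, held developmental transcription factors. Their regions held a median of 4.5 tags in knockout replicate 1 and 8.0 in replicate 2, and 34 of the 50 had no Msx2-WT peak at any promoter. Over all of the 428 genes that share was 76.4% (327), beside which the counts of this kind for the single classes are to be read. Zbtb46 led the class, followed by E2f8, a repressor of cell cycle genes, with 10 and 32 tags, the most in replicate 2 among the 419 regions. Hsf4, a heat shock factor of the lens, had 10 and 10. Sox2, a factor of the dermal papilla and of sensory cells, had 6 and 7.

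Matrix and adhesion genes numbered 28, with a median of 4.5 tags in replicate 1 and 8.5 in replicate 2. After Col6a2 came Ext2, which builds heparan sulfate chains (9 and 13), Adamts19, Ccn5, a secreted matricellular protein (5 and 6), Itga4, an integrin subunit (6 and 7), and Dst, a linker of hemidesmosomes (6 and 18). Dst shared its region with Bend6, and it had an Msx2-WT peak in another promoter region. In this class 22 of the 28 genes had none.

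Genes of neuronal wiring and synapses numbered 24 and ion channels 19. After Unc13a came Prima1, which anchors acetylcholinesterase (7 and 13), Plxnb2, Ntm, a neuronal adhesion molecule (6 and 9), Unc5d and Ctnnd2, a delta-catenin (6 and 13). Among channels other than those above were Pkd2, a polycystin (6 and 16), Piezo2, the touch channel (5 and 9), and Chrna7, a nicotinic receptor subunit (6 and 6). Receptors for hormones and transmitters numbered 11, led by Chrm3 (6 and 13), a muscarinic receptor, and Hrh3 (5 and 5), a histamine receptor. No Msx2-WT peak was listed at any promoter of 18 of the 24 wiring genes, 15 of the 19 channels and 8 of the 11 receptors.

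Genes that most cells use were present too. The class for transcription, RNA and protein upkeep held 21 genes, of which 19 had no Msx2-WT peak at any promoter, with a median of 6.0 tags in replicate 1 and 13.0 in replicate 2. After Det1 and Elac1 came Lman2l, a cargo receptor of the secretory pathway (8 and 18), Poglut1, which adds glucose to Notch (8 and 11), Med10, a Mediator subunit (9 and 23), and Clint1, a clathrin adaptor (7 and 11). The class of mitochondria and energy metabolism held 12 genes, and after Dnajc19, Fdx1l and Slc25a16 came Ndufc2 of respiratory complex I (8 and 15), the glycolytic enzyme Gpi1 (11 and 20) and Slc25a13. The median G+C content was 66% in the upkeep class and 65.5% in the mitochondrial class, compared with 52.8% in the 11 C2H2 zinc finger genes named Zfp or Gm.

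Signalling genes of the follicle made up smaller classes. The Wnt, SMAD and Hippo class held 11 genes: after Pygo1 and Lzts2 came Cdk14, a kinase that activates the Wnt receptor (8 and 14), the adaptor Trip6 (7 and 6), Lats1, the kinase of the Hippo pathway (6 and 12), and Nkd1, a feedback inhibitor of Wnt signalling (5 and 10). Growth factors, cytokines and their receptors also numbered 11, with Pcsk6, a protease that matures TGF-beta family ligands (7 and 8), Edar, the ectodysplasin receptor of hair placodes (4 and 11), and Pdgfd (4 and 12) beside Il31ra and Il6. Cell cycle and growth control held 6 genes: Bin1 (7 and 11), the Ras inhibitor Nf1 (6 and 14), Mcmbp of the replication helicase (9 and 14), Cdkn2a, Ccnd2 and Rcc2 (5 and 10). Edar had no Msx2-WT peak at any promoter.

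The remaining classes held immune, germ cell, cilium, cytoskeleton and transport genes. Immune and interferon genes numbered 13, led by Gbp6 (5 and 8) and Helz2 (5 and 15), both induced by interferon, and Cd200 (9 and 11), a surface protein that restrains myeloid cells. Another region at the Cd200 start held 11 tags in Msx2-WT, 8 in knockout replicate 1 and 26 in knockout replicate 2. Germ cell genes numbered 10, led by Rbm46 (8 and 17), with Dazl (5 and 10), both RNA-binding proteins of germ cells. An Msx2-WT peak in another promoter region was listed for 0 of the 10. Genes of the motile cilium numbered 5, led by Daw1 (7 and 14) and Cfap69 (6 and 7). Muscle and cytoskeleton genes numbered 10, led by Myo6 (6 and 13) and Tpm2 (6 and 8). Solute transport genes outside mitochondria numbered 8, among them Slc35d1 (7 and 15), which carries sugar nucleotides.

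The regions were spread over all of the autosomes. Their share of the promoter regions of a chromosome was highest on chromosome 3 (38 of 792, 4.80%, 95% Wilson interval 3.52 to 6.52), the chromosome of Dnajc19, and lowest on chromosome 19 (5 of 512, 0.977%, 0.418 to 2.27), the chromosome of Lzts2. Chromosome 2 held the most, 45, including 4 zinc finger genes of the tandem array. Of the 419 regions, 12 lay at promoters of 2 genes each, such as the RNA helicase Ddx51 with the ribosome biogenesis gene Noc4l (5 and 6 tags) and Col4a3 with Col4a4.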

How the data were processed

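Omni-ATAC-seq peak lists of 1 Msx2-WT and 2 Msx2-KO libraries were used, 1 list per library, with replicates not pooled. By the methods of the study, reads passed through Trimmomatic and BWA-MEM (GRCm38), mitochondrial reads were removed, and MACS2 called the peaks with its shifting model off and duplicates kept. The labels also name Partek. The MACS2 version is not given in the sources used here. The authors deposited for each summit a fold (tags plus 1 over the local background plus 1), a −log10 p and a −log10 q from a Poisson test against the background of the same library, and a score that follows the −log10 p and was not used. The methods of the study name a q-value cutoff below 0.01, whereas each deposited list ends at a p-value of 0.01 and so holds weaker peaks. That cutoff, a −log10 q above 2.0, was reached in both Msx2-KO lists by 154 of the 419 regions. Duplicates kept in the tags can raise a summit, and the number of listed peaks depends on depth.

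For each summit, the whole tag number and the background that give its deposited fold and −log10 p were found. This succeeded for 99.9% of wild-type summits, 99.9% of those of knockout replicate 1 and 99.94% of those of knockout replicate 2. Tag recovery and region classes were tested on simulated data. All of the 36508 to 104386 summits of each list entered with no score filter. Genes and start sites came from the basic GENCODE M21 annotation of GRCm38 (41451 start sites), and promoter sequences and motif backgrounds from RefSeq of GRCm38. Shares carry 95% Wilson intervals and tags 95% Poisson intervals. With 1 Msx2-WT library no p-value between genotypes was computed.

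The regions, gene lists and families were chosen with earlier results of these data known. The genes named were the 20 regions whose weaker Msx2-KO peak had the largest −log10 q, genes of the lists and markers, up to 6 genes per family of at least 3 members and per functional class by the same order, genes with more than 1 region, the 3 regions nearest the limit on each side and the 3 with the smallest weaker −log10 q. The functional classes, the homeobox, forkhead, T-box, guidance and Adamts families, and genes said to be picked were chosen after the values were seen, as were others named for their role in hair or skin. Alternatives were other score limits, lists of equal length, windows of 500 and 3000 bases, other positions, starts, chromosomes, overlaps and distances, leaving out masked regions, and leaving out each Msx2-KO library. RNA-seq data of the study were not analysed here. Software was statsmodels 0.14.6, scipy 1.17.1, pandas 2.3.3, numpy 2.4.6, matplotlib 3.10.9 and Python 3.11.15.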

Additional observations from a re-analysis of the deposited data

Results flagged for a closer look

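Chromosome X was outside the comparison of the report and held 38 further promoter regions with a peak in both Msx2-KO lists and none in Msx2-WT. They made up 7.66% of its 496 promoter regions (95% Wilson interval 5.63 to 10.3), compared with 2.75% on the autosomes (2.50 to 3.02). The X-linked genes included Porcn, an enzyme needed to secrete Wnt ligands, the growth factor Vegfd, the ribosomal protein gene Rps4x and the LIM domain gene Fhl1. Chromosome Y held 10 promoter regions, of which 3 were in both Msx2-KO lists and not in Msx2-WT (30.0%, 10.8 to 60.3), at the predicted genes Gm21748 and Gm21860. The lists held 6 of the 10 in Msx2-WT, 5 in knockout replicate 1 and 4 in knockout replicate 2, and 301, 313 and 453 of the 496 on chromosome X. The sexes of the mice behind each library are not given in the labels, and their part in these shares was not tested.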

How the results depend on the processing

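The number of regions (419), of genes (428) and of zinc finger genes named Zfp, Zbtb, Zkscan or Zscan (10) each stayed within 1.5 times its value in 9 of 14 alternatives, the share of promoter regions (2.75%) moved by less than its interval in 6 and the median G+C content (61.6%) in 7. Leaving out 1 Msx2-KO library in turn moved the regions to 2563 (without Msx2-KO replicate 1) and 823 (without Msx2-KO replicate 2), the genes to 2446 and 824, the share to 17.1% and 6.05%, the median G+C content to 57.2% and 55.8%, and the zinc finger genes to 47 and 15, so these values rested on having both libraries, except that the 15 zinc finger genes stayed within 1.5 times of 10. With a −log10 q above 2.0 in the Msx2-KO lists alone, there were 154 regions, 158 genes, a share of 1.14%, a G+C content of 63.0% and 5 zinc finger genes. With that limit in all 3 lists the share was 4.22% and the zinc finger genes numbered 25, and 162 of the 493 genes were among the 428 (37.9% of these). With a −log10 q of at least 5 in all 3 lists the share was 3.4% and the G+C content 63.0%, and 27 of the 332 genes were among the 428. With lists of equal length, 34904 summits each, there were 711 regions, 733 genes, of which 289 were among the 428 (67.5% of these and 39.4% of the 733), a share of 6.14%, a G+C content of 63.2% and 30 zinc finger genes. With 50% reciprocal overlap of the Msx2-KO peaks there were 212 regions, 220 genes, a share of 1.39% and 5 zinc finger genes. The G+C content was 63.2% in a window of 500 bases and 58.2% in one of 3000 bases, and with no Msx2-WT peak within 1000 bases the share was 2.38%. The alternatives differ in which peaks they admit, and further causes were not tested. The background of 0.476 tags in Msx2-KO replicate 1 limits which small peaks could be listed there. No paired analysis was possible because the groups share only replicate number 1 and the results come from no test.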
